A study of Mus musculus with 6 samples.

Results

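The genes described here encode the protein subunits of the mitochondrial ribosome, and they were taken as every row of the expression table whose symbol reads Mrpl or Mrps followed by a number and at most 1 letter. That rule gave 77 genes of 46095 rows, 48 named for the large subunit (Mrpl) and 29 for the small subunit (Mrps). RNA was sequenced from mouse 3T3-L1 cells, a preadipocyte line that is differentiated into adipocytes in culture, at 8 days after differentiation. In the labels 3 libraries are untreated controls, and the other 3 came from cells given flavonoids of the medicinal plant Smilax glabra at 0.125 μg/mL. No other agent or allele separates the groups, neither a vehicle nor the duration of treatment is named, and all 6 libraries share the 1 cell line. The labels call each group a triplicate without saying whether the cultures were separate, so the spread between libraries may be technical.

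The mitochondrial ribosome translates the few proteins still encoded by mitochondrial DNA, all of them membrane subunits of the respiratory chain and ATP synthase. Its protein subunits are encoded in the nucleus, made in the cytosol and imported, whereas its ribosomal RNAs are transcribed inside the organelle. The small subunit decodes messenger RNA, and the large subunit holds the peptidyl transferase centre and the exit tunnel, which faces the inner membrane. Fat cells are known to gain mitochondria as they differentiate, and the supply of these proteins is part of that growth. Symbols do not fully match place: Mrps30 and Mrps18a lie in the large subunit in structures of the mammalian ribosome, and Mrps36 is now assigned to the 2-oxoglutarate dehydrogenase complex.

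Levels are FPKM, fragments scaled to a gene length and to library depth. The annotation that gave the lengths is not named, so comparisons between genes are only as good as those lengths. Whole fragments recovered from the table totalled 21952064 to 26355863 per library. Each of the 77 genes reached the mean of 1 FPKM required for testing, as did 11464 genes in all. The cells' labelled type was compared with markers. Of 10 adipocyte markers, Adipoq, Plin1, Cd36, Slc2a4, Lep and Cidec had means under 1 FPKM. The 4 tested, Fabp4, Lpl, Pparg and Cebpa, had a median of 103 FPKM, against 10.3 FPKM for all genes tested. The 10 adipocyte markers summed to 385 to 415 FPKM in untreated and 345 to 518 FPKM in flavonoid libraries, and 6 preadipocyte or fibroblast markers to 2404 to 3206 and 1974.5 to 2282 FPKM. Of the latter, Thy1 and Lum were called lower with flavonoids and none of the 6 higher, beside 5.13% and 4.86% of all genes tested. All 6 had estimates below 0, with a median log2 change of -0.55. The groups did not overlap for 5 of the 6, all lower, where 17.3% of all genes tested did so. Nearly all of the adipocyte sum came from the 4 tested genes, and in every library it was below the preadipocyte or fibroblast sum. The labels place the cells after differentiation, while the adipocyte markers were split, with 4 tested and the rest under 1 FPKM. Sums over different genes do not measure cell state, so these markers do not settle how far the cells had differentiated. Macrophage markers summed to at most 2.74 FPKM with Ptprc at 0, and endothelial and muscle markers to at most 0.0959 and 0.0273 FPKM. The part of these markers in the results below was not tested, and in such bulk samples fewer cells of a type and less RNA per cell cannot be told apart.

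Promoter stretches are printed for 4 genes, because Mrpl16 and Mrps30 were the genes called with flavonoids, Mrps18a had the second largest estimate, and Mrpl49 was the 1 gene called lower when levels were set relative to the median of the 77 genes. Each runs from 170 bases before to 30 bases from the RefSeq start (GRCm38.p6), on the gene's strand. Capitals mark the motifs found. The stretches lie at chr19:11770245-11770444 (plus strand) for Mrpl16, chr13:118387223-118387422 (minus strand) for Mrps30, chr17:46110834-46111033 (plus strand) for Mrps18a and chr19:6057726-6057925 (minus strand) for Mrpl49.
Mrpl16: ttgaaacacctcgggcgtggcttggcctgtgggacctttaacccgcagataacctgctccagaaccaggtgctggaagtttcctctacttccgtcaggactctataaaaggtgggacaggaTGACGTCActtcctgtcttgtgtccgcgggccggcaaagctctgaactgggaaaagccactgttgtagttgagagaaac
Mrps30: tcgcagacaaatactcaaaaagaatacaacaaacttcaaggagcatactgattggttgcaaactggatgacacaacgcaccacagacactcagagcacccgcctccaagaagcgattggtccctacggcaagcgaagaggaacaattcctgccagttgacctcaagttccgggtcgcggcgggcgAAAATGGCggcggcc
Mrps18a: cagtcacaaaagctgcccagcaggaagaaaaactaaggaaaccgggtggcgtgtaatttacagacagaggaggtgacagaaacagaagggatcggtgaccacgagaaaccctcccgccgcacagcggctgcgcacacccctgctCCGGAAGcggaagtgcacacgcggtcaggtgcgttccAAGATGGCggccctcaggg
Mrpl49: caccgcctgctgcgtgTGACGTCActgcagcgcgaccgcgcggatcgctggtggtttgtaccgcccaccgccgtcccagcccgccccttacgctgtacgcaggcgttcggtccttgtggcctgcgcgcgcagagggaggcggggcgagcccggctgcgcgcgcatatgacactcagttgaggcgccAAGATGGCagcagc
Mrpl16 and Mrpl49 both carried the cAMP response element TGACGTCA, Mrps18a carried the ETS-family letters CCGGAAG, and Mrps30, Mrps18a and Mrpl49 carried the YY1 letters AANATGGC just after the start. The YY1 letters contain ATG, so a match after the start can also be a start codon.

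RefSeq windows of 250 bases before to 50 bases after the start were found for 68 of the 77 genes, with 74 windows in all and a median GC content of 58.5%. Both strands were searched for 5 motifs of factors known to act at nuclear genes of mitochondria or growth. The ETS letters, which GABPA binds, stood in 25 windows, 33.8%, against 18.7% of windows of the other tested genes and 8.86% of all 32851 windows. The YY1 letters stood in 20 windows, 27%, against 8.8% and 6.05%. Many of these matches lay after the start, where they can be start codons, and how many are was not tested. The NRF1 letters, GCGC followed by AN or NT and GCGC again, stood in 13 windows, 17.6%, against 10.9% and 4.6%. Mrpl45 had 3 NRF1 matches in its window, and Mrpl12 had 1 at 81 bases before the start.

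At least 1 of the NRF1, ETS and YY1 motifs stood in 46 windows, 62.2%, against 33.1% of windows of the other tested genes and 17.4% of all windows. That pooled share includes the YY1 matches that can be start codons. Mrpl16 and Mrpl49 were the only 2 genes with the cAMP response element, 2.7% of windows against 3.11% and 1.79%. The E-box CACGTG, which MYC and MAX bind, stood in 7 windows, 9.46%, against 10.4% and 7.15%. Those 7 windows belong to 5 genes, since 3 overlapping windows of Mrpl2 hold the same site. Between subunits, ETS letters stood in 29.8% of large-subunit and 40.7% of small-subunit windows, and NRF1 letters in 21.3% and 11.1%. No windows held different motifs that overlapped. A match is a match of letters only, and a window without one says only that those letters are not in it.

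The 77 genes spanned a 128-fold range of mean level, from 1.07 FPKM for Mrps18b to 136 FPKM for Mrps6. The low end rested on few fragments, as given below, and within the middle 90% of the genes the range was 40.6-fold. The median over genes was 25.3 FPKM for the large subunit and 25.01 FPKM for the small subunit. FPKM thus differed widely within 1 complex, in part through the length each gene was divided by. Mrpl17 and Mrpl12 had 1505 to 2318 and 1318 to 2877 fragments per library. At implied lengths of 6756 and 955 bases their means were 12.7 and 96.6 FPKM. Whether the lengths match the transcripts of these cells was not tested. The 4 highest of the large subunit were Mrpl52, Mrpl13, Mrpl33 and Mrpl28, and the 4 highest of the small subunit were Mrps6, Mrps18a, Mrps16 and Mrps21. Mrps6 had 176, 141 and 101 FPKM in untreated and 116, 133 and 150 FPKM in flavonoid libraries. The flavonoid range lay within the untreated one, and the same held for Mrpl33, a small protein of the large subunit, at 155, 95.9 and 75.9 against 117, 97.8 and 95.2 FPKM.

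The 3 genes homologous to the bacterial small-subunit protein S18 showed how far such levels part. Mrps18a had 108, 87.4 and 71.6 FPKM in untreated and 122, 126 and 140 FPKM in flavonoid libraries. Mrps18c, the homologue that sits in the small subunit where S18 does, had 63.6, 46.7 and 32.6 against 56.4, 52.2 and 40.8 FPKM. Mrps18b had 0.623, 0.690 and 0.864 against 1.14, 1.63 and 1.46 FPKM. The order Mrps18a, Mrps18c, Mrps18b was the same in all 6 libraries, while the groups overlapped for Mrps18c alone.

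Mrps18b and Mrpl40 were among the 4 genes of fewest fragments, with Mrpl22 and Mrpl23, and both lie among neighbours of low level. Mrps18b rested on 29 to 91 fragments per library and Mrpl40 on 19 to 179, where the 77 genes together ranged from 19 to 3071. Of the 20 nearest protein-coding genes, 10% reached a mean of 1 FPKM around each of these 2 genes, against a median of 60% over the 77 genes. Their counting error alone, 13.4% and 14.4% as a coefficient of variation at the mean depth, was above the median of 3.27%. The reason for their low levels was not tested.

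The levels of these genes were spread more widely over the untreated than over the flavonoid libraries. The median gene of the 77 had 27.9, 24.4 and 19.3 FPKM in untreated replicates 1, 2 and 3 and 26.1, 27.5 and 27.0 FPKM in flavonoid replicates 1, 2 and 3. Untreated replicate 3 was thus the low library and untreated replicate 1 the high one, with the flavonoid libraries between or beside them. The large subunit had 27.5, 24.1 and 19.2 against 27.1, 27.9 and 26.6 FPKM, and its highest library was flavonoid replicate 2. The small subunit had 29.7, 27.96 and 20.4 against 25.8, 27.5 and 27.0 FPKM, and its highest library was untreated replicate 1. Untreated replicate 3 was the lowest for both subunits, and the difference of their median log2 levels, large minus small, stayed between -0.20 and 0.07.

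**Figure D1:**
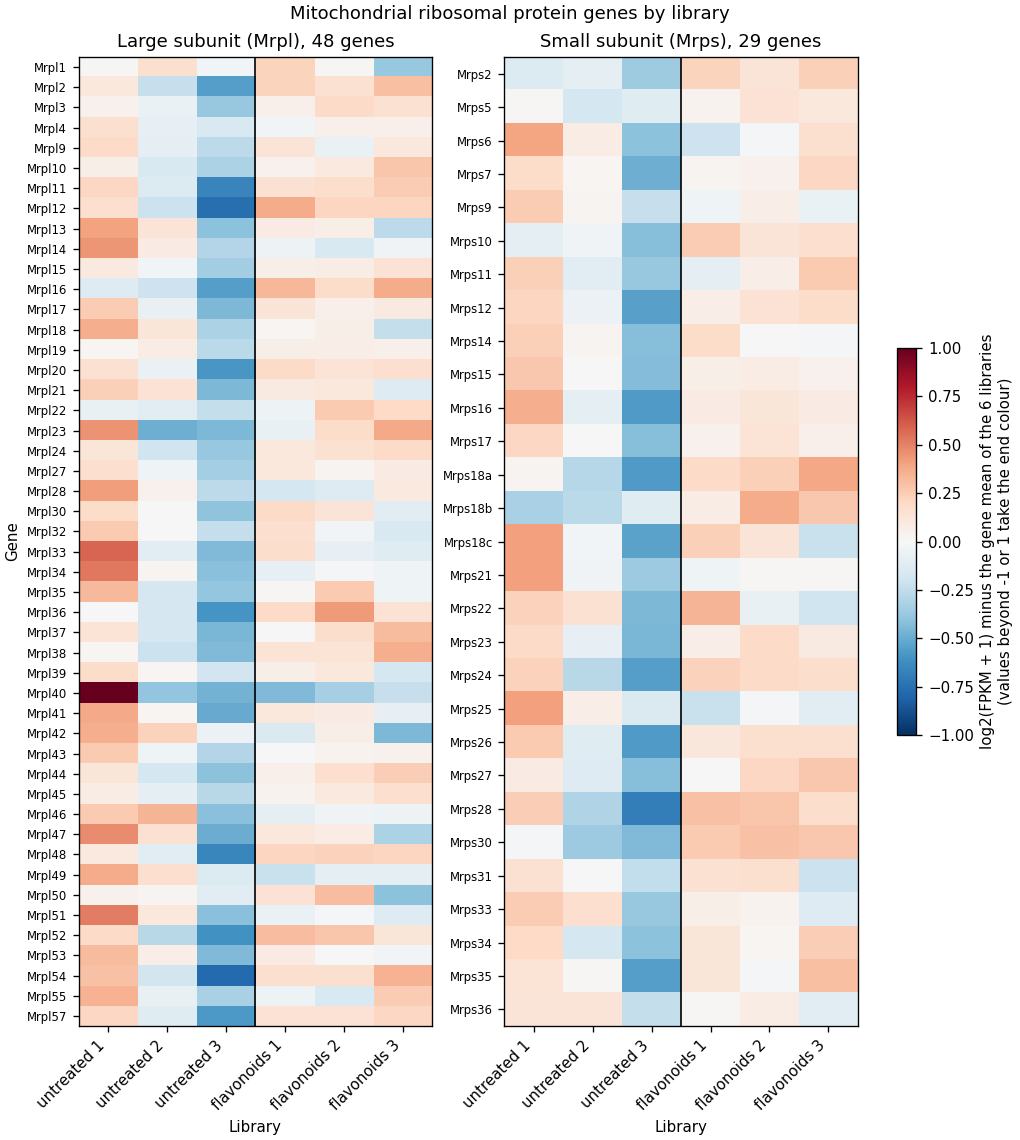
Level of each of the 77 genes in the 6 libraries, as log2(FPKM + 1) minus the gene's mean over the libraries (red higher, blue lower), with the large subunit on the left and the small subunit on the right. The column of untreated replicate 3 is blue for nearly all genes, being the lowest of 6 for 69 of 77, and Mrpl40 stands out in untreated replicate 1.

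Untreated replicate 3 was the lowest of the 6 libraries for 69 of the 77 genes, 89.6%, against 29.8% of all genes tested. The 8 exceptions, Mrpl1, Mrpl23, Mrpl42, Mrpl49, Mrpl50, Mrps18b, Mrps25 and Mrps5, came from both subunits. None of the 77 was above its own 6-library mean in that library, against 70 in untreated replicate 1 and 49 to 60 in the flavonoid libraries. Together the 77 genes held 0.641%, 0.563% and 0.484% of summed FPKM in the untreated libraries and 0.593%, 0.598% and 0.602% in the flavonoid libraries.

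Per gene, the coefficient of variation over 3 libraries had a median of 23.1% in the untreated and 7.04% in the flavonoid group. Over all genes tested the medians were 15.6% and 10.3%. The untreated spread was the larger for 71 of the 77 genes, and for 63.9% of all genes. Genes of 2 other lists shared the library pattern. Untreated replicate 3 was lowest for 77 of 83 cytosolic ribosomal protein genes (92.8%) and for 71 of 79 nuclear-encoded respiratory chain genes (89.9%). In these libraries level moved with gene length: over all genes tested, Spearman's rho between length and a library's deviation from the gene mean was -0.58, 0.12 and 0.63 in untreated replicates 1, 2 and 3 and between -0.15 and -0.08 in the flavonoid libraries. That is a description across genes, which share each library. The 77 genes were short, with a median implied length of 1221 bases against 2862 for all genes tested.

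**Figure D2:**
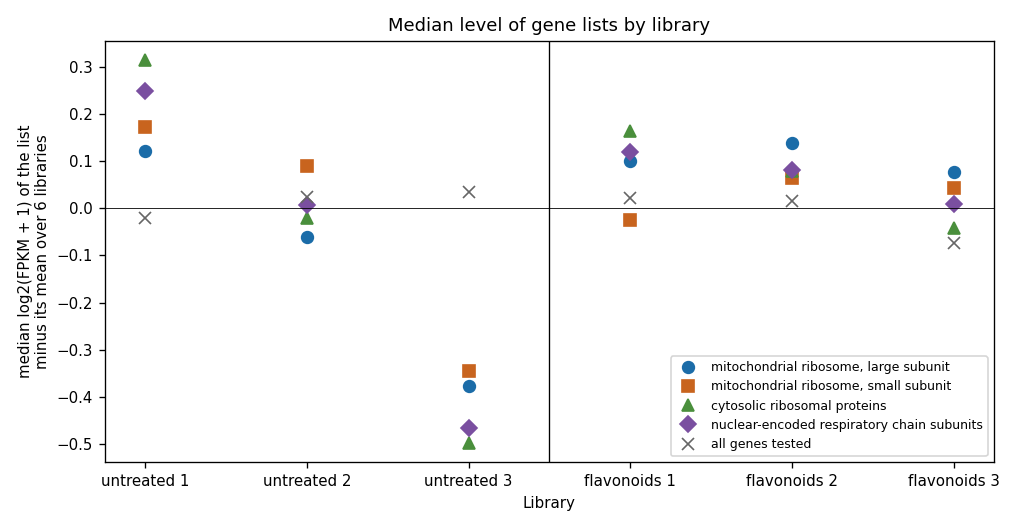
Median log2(FPKM + 1) of 4 gene lists and of all genes tested in each library, each minus its own mean over the 6 libraries. Both subunits of the mitochondrial ribosome, the cytosolic ribosomal proteins and the respiratory chain genes are lowest in untreated replicate 3, where all genes tested are not.

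The comparison of flavonoid with untreated cells called 2 of the 77 genes, Mrpl16 and Mrps30, both higher with flavonoids, and no gene lower (limma, adjusted p under 0.05). Over all genes tested 4.86% were called higher, 5.13% lower and 9.99% in either direction, so the 2 of 77 lie below that background. At an unadjusted p under 0.05, 13 of the 77 genes were higher and 0 lower, beside 12.8% and 14.3% of all genes. The estimate was above 0 for 56 of 77 genes, and the median log2 change was 0.16 against -0.02 for all genes tested. The median standard error of a gene's log2 change was 0.17, so for the typical gene a change of the size of that median could not be shown with 3 libraries per group. Cytosolic ribosomal protein genes had a median log2 change of 0.17 with 73 of 83 estimates above 0. Nuclear-encoded respiratory chain genes had 0.14 with 65 of 79, so the shift was not particular to the 77 genes. Of the 79 respiratory chain genes 1 was called higher, Cox6a2, and 0 lower, and of the 83 cytosolic ones 0 were called.

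Mrpl16 (chromosome 19, 11770415 to 11774956, GRCm38) encodes the homologue of a bacterial protein that contacts transfer RNA next to the peptidyl transferase centre. It had 25.7, 24.4 and 18.9 FPKM in untreated and 35.7, 32.2 and 36.8 FPKM in flavonoid libraries. Every flavonoid library was above every untreated one. The means were 23.0 ± 3.61 and 34.9 ± 2.42 FPKM (SD, n = 3), a 1.52-fold rise, with a log2 change of 0.59 (SE 0.14, limma adjusted p = 0.0323).

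Mrps30 (chromosome 13, 118380110 to 118387252) encodes a mitochondria-specific protein that lies in the large subunit despite its symbol. It had 13.6, 10.51 and 9.86 FPKM in untreated and 16.7, 17.05 and 16.8 FPKM in flavonoid libraries. The groups did not overlap, and the flavonoid libraries differed by less than the untreated ones. The means were 11.3 ± 2.02 and 16.8 ± 0.197 FPKM (SD, n = 3), with a log2 change of 0.54 (SE 0.14, limma adjusted p = 0.0409). Mrpl16 was called without untreated replicate 3 (adjusted p = 0.0288), where Mrps30 was not (0.0584). Neither was called without untreated replicate 2, with adjusted p of 0.115 for Mrpl16 and 0.19 for Mrps30, or without any 1 flavonoid library, and both were called without untreated replicate 1.

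Mrps18a (chromosome 17, 46111004 to 46128908), the other protein placed in the large subunit against its symbol, had an estimate of similar size. Its values, given above, did not overlap between groups, with means of 89.2 ± 18.5 and 129 ± 9.45 FPKM (SD, n = 3). The log2 change of 0.55 (SE 0.16) missed the threshold at a limma adjusted p of 0.0645. With each gene placed where structures put it, and Mrps36 left out, the large subunit had 50 genes with 2 called and a median log2 change of 0.14. The small subunit then had 26 genes with 0 called, and a median of 0.19. By symbol 1 of 48 and 1 of 29 genes were called, so these counts differ only through the placing of Mrps30. Over all genes tested 4.86% were called higher. The difference between subunits was not tested, since genes of 1 complex are not replicates.

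**Figure D3:**
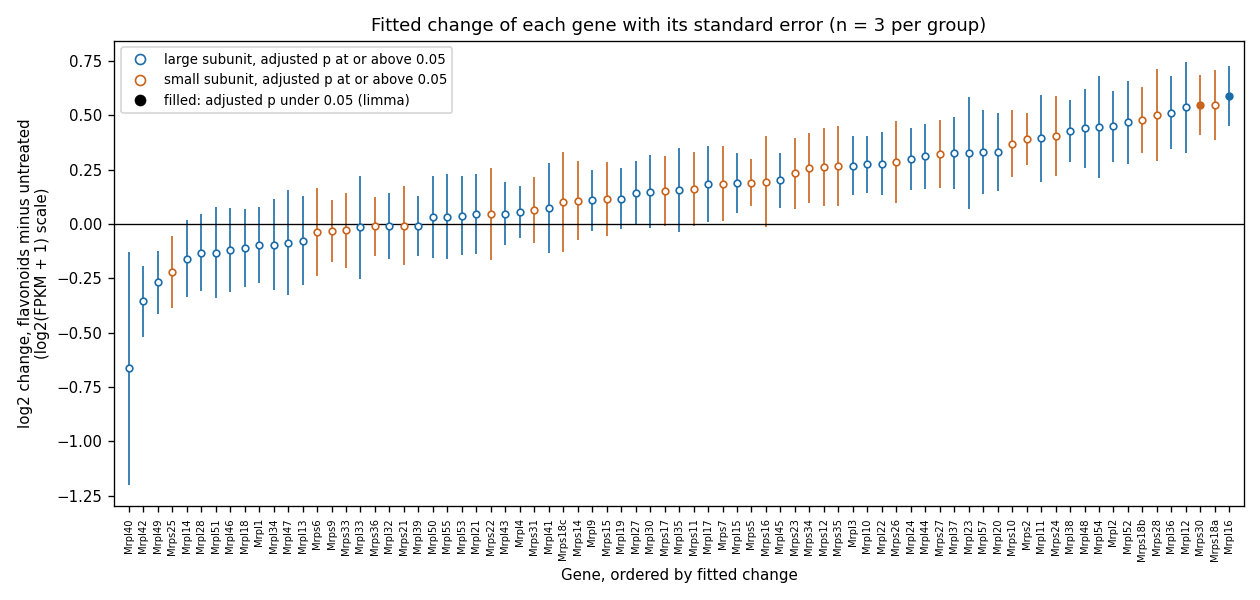
Fitted log2 change of each of the 77 genes, flavonoids minus untreated, with its standard error (3 libraries per group), in rising order and coloured by subunit. The filled points are Mrpl16 at 0.59 and Mrps30 at 0.54, and both subunits are spread along the whole order.

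By symbol, 33 of 48 large-subunit and 23 of 29 small-subunit genes had estimates above 0, with medians of 0.13 and 0.19. The groups did not overlap for 14 of the 77 genes, all 14 higher with flavonoids, where 17% of all genes tested did not overlap on the higher and 17.3% on the lower side. The large-subunit ones were Mrpl2, Mrpl3, Mrpl12, Mrpl16, Mrpl22, Mrpl36, Mrpl38 and Mrpl48. The small-subunit ones by symbol were Mrps2, Mrps5, Mrps10, Mrps18a, Mrps18b and Mrps30. Reads of Mrpl48 may be shared with Mrpl48-ps, a pseudogene listed at a mean of 14.8 FPKM, and those of Mrpl23 with Mrpl23-ps1 at 1.93 FPKM, so levels of those genes are uncertain.

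Among genes of the catalytic core, the stalk and the tunnel exit, none but Mrpl16 passed the test. Mrpl12, the stalk protein that recruits translation factors, had 105, 80.7 and 55.0 FPKM in untreated and 121, 109 and 109 FPKM in flavonoid libraries, which did not overlap. Its log2 change of 0.54 had an SE of 0.21 (limma adjusted p = 0.143). Mrpl10, on which the stalk is built, had 50.7, 43.7 and 38.8 against 49.98, 51.96 and 59.04 FPKM, where untreated replicate 1 lay above flavonoid replicate 1. Mrpl2, of the peptidyl transferase region, had 63.9, 50.5 and 40.2 against 69.4, 65.9 and 73.2 FPKM, with a log2 change of 0.45 (SE 0.16, limma adjusted p = 0.122). Mrpl45, which anchors the tunnel exit to the inner membrane, had 19.8, 17.5 and 15.3 against 19.2, 20.1 and 21.2 FPKM, and these groups overlapped.

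Mrpl36, a small protein of the large subunit, had 14.8, 13.1 and 9.52 against 17.1, 20.4 and 16.6 FPKM, with no overlap. Mrpl52, a mitochondria-specific protein and among the most abundant of these transcripts, had 143, 103 and 81.7 against 155, 151 and 136 FPKM. Its groups overlapped through untreated replicate 1 alone. Mrpl47 and Mrpl55, which are among the large-subunit genes with bacterial homologues, had log2 changes of -0.09 and 0.03 with standard errors of 0.24 and 0.19.

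In the small subunit, Mrps12, which lies at the decoding centre, had 57.2, 47.1 and 33.4 FPKM in untreated and 51.5, 54.5 and 56.1 FPKM in flavonoid libraries. Mrps24, the homologue of bacterial S3 near the messenger RNA entry, had 42.4, 29.5 and 24.2 against 42.5, 41.3 and 40.9 FPKM. In both, untreated replicate 1 was within or just above the flavonoid range and untreated replicate 3 was low. Mrps28, the homologue of bacterial S1, had 17.4, 11.6 and 8.61 against 18.04, 17.9 and 16.6 FPKM, again with untreated replicate 1 inside the flavonoid range. Mrps16, with a log2 change of 0.19 (SE 0.21), and Mrps21, with -0.01 (SE 0.18), are small-subunit proteins with bacterial homologues and had no call.

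The lowest estimates were those of Mrpl40, Mrpl42, Mrpl49 and Mrps25, none of them called. Mrpl40 had 7.68, 0.810 and 0.713 FPKM in untreated and 0.758, 0.893 and 1.03 FPKM in flavonoid libraries. Its log2 change of -0.66 (SE 0.54) came from untreated replicate 1, and without that library it was 0.10. Mrpl42, a mitochondria-specific protein, had 71.8, 65.5 and 53.5 against 50.3, 58.2 and 40.4 FPKM, and its groups overlapped. Mrpl49 (chromosome 19, 6053630 to 6057755) had 70.2, 60.8 and 48.9 against 46.1, 50.6 and 50.7 FPKM, and overlapped through untreated replicate 3. Mrps25 had 7.48, 5.71 and 4.79 against 4.49, 5.35 and 4.96 FPKM.

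**Figure D4:**
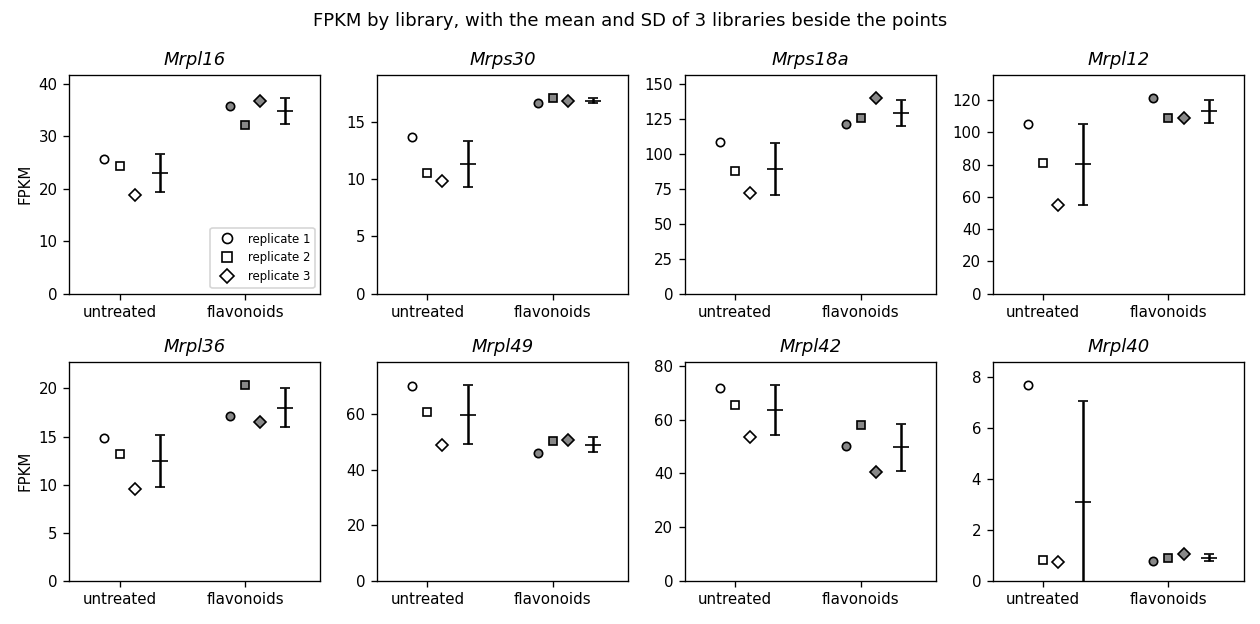
FPKM of 8 genes in each library (open symbols untreated, filled symbols flavonoids, shapes the replicate numbers) with the mean and SD of 3 libraries beside the points. Mrpl16, Mrps30, Mrps18a, Mrpl12 and Mrpl36 do not overlap between groups, Mrpl49 and Mrpl42 do, and the untreated mean of Mrpl40 rests on replicate 1 at 7.68 FPKM.

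To compare members with one another free of the shared library pattern, each library's log2 values were set relative to the median of the 77 genes (the median member), a choice made after the data were seen. The groups then did not overlap for 14 genes on the higher side, 10 large and 4 small by symbol, and for 15 on the lower side, 11 large and 4 small. Since the median came from these same genes, a split to both sides is built into the centring and is no result in itself. Over all genes tested that centring left 6.43% higher and 25.2% lower, because it moved the median of all genes by -0.18. On this scale Mrpl49 was the 1 gene called, lower with a log2 change of -0.45 (limma adjusted p = 0.0276), beside 5.04% of all genes called lower. It lay 1.30, 1.29 and 1.30 above the median member in the untreated libraries and 0.80, 0.86 and 0.88 above it in the flavonoid libraries, as log2 differences. Mrpl42 went from 1.33, 1.39 and 1.43 to 0.92, 1.06 and 0.56, which did not pass the test. Mrpl16 went from -0.11, 0 and -0.03 to 0.44, 0.22 and 0.43, with a log2 change of 0.41 (limma adjusted p = 0.0817). The untreated libraries, far apart in FPKM, thus lay close together for Mrpl49 on this relative scale.

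Removing each library's trend over gene length raised the calls to 12 higher and 2 lower, beside 10.7% and 10.9% of all genes. The higher ones were Mrpl2, Mrpl12, Mrpl16, Mrpl36, Mrpl38, Mrpl48, Mrpl52, Mrps2, Mrps18a, Mrps24, Mrps28 and Mrps30, and the lower ones Mrpl42 and Mrpl49. Mrps18a then had a log2 change of 0.47 (limma adjusted p = 0.00475) and Mrpl49 one of -0.31 (limma adjusted p = 0.0383). Leaving out untreated replicate 1 gave 16 higher and 0 lower, beside 7.64% and 7.27% of all genes, and medians of 0.27 and 0.33 for the large and small subunit. Leaving out untreated replicate 3 gave Mrpl16 higher and Mrpl49 lower, beside 5.51% and 6.36% of all genes, and those medians became 0.0013 and 0.01. The size of the shift of the whole set thus depended on which untreated libraries were kept, while the change of Mrpl16 was 0.46 without untreated replicate 3. With the length trend removed and all libraries kept, the medians were 0.11 and 0.13 for the large and small subunit. What set the untreated libraries apart was not tested.

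**Figure D5:**
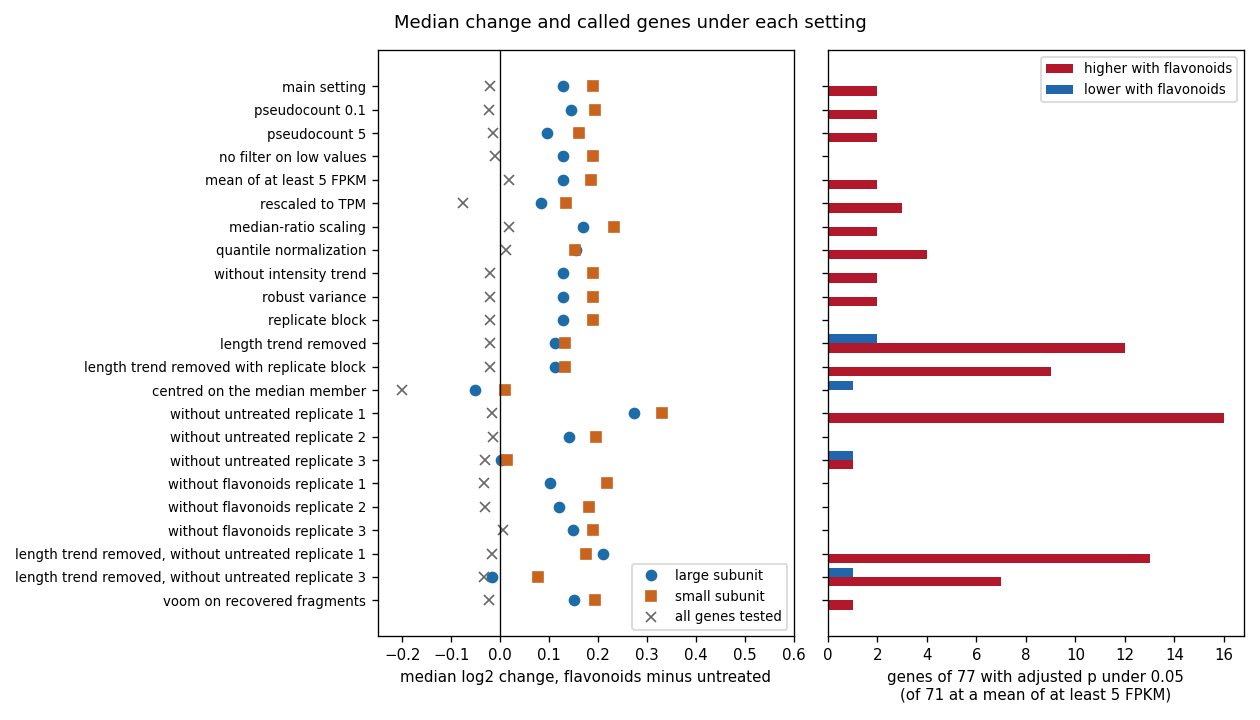
Left, median log2 change of large-subunit genes, small-subunit genes and all genes tested under each setting; right, number of the 77 genes called higher or lower under it. Without untreated replicate 3 both subunit medians lie at 0.0013 and 0.01, and the number called ranges from 0 to 16.

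Grouped by ancestry, 48 genes have a bacterial homologue and 29 are specific to mitochondria. The first had 1 called (Mrpl16), 36 estimates above 0 and a median log2 change of 0.16. The mitochondria-specific ones had 1 called (Mrps30), 20 estimates above 0 and a median of 0.07. Over all genes tested 4.86% were called higher and 5.13% lower. Of 6 ribosomal proteins known under other symbols, Dap3, Ptcd3, Chchd1, Aurkaip1, Gadd45gip1 and Ict1, 0 were called, with a median of 0.16. Dap3, the GTP-binding protein of the small subunit, had 13.4, 11.5 and 8.51 FPKM in untreated and 10.97, 11.7 and 13.3 FPKM in flavonoid libraries.

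Among genes that build the ribosome, 5 of 25 tested were called higher and 0 lower, beside 4.86% and 5.13% of all genes tested, with a median log2 change of 0.19 and 22 estimates above 0. Rnmtl1, a methyltransferase of the large-subunit ribosomal RNA, had 2.94, 2.78 and 1.96 FPKM in untreated and 4.79, 5.10 and 4.81 FPKM in flavonoid libraries. Wbscr16, an assembly factor, had 9.71, 7.53 and 6.93 against 13.1, 13.5 and 13.6 FPKM. Neither overlapped between groups, and the log2 changes were 0.74 and 0.68 (limma adjusted p = 0.019 and 0.0196). The RNA helicase Ddx28 had 9.77, 7.63 and 6.75 against 12.6, 12.5 and 14.3 FPKM, the GTPase Mtg1 7.78, 6.78 and 5.63 against 10.2, 10.2 and 11.6 FPKM, and the GTPase Noa1 8.51, 7.91 and 7.67 against 10.96, 11.3 and 12.7 FPKM. Those 3 rose by log2 changes of 0.65, 0.60 and 0.49 (limma adjusted p = 0.0289, 0.0315 and 0.0374). Of the 5, Ddx28, Mtg1 and Wbscr16 were called under 16 of 23 settings, Rnmtl1 under 15 of 22 and Noa1 under 14 of 23. The number called fell to 0 when untreated replicate 2 or flavonoid replicate 1, 2 or 3 was left out, where 0.567%, 0.829%, 1.33% and 2.17% of all genes were called higher.

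The 15 translation factors and messenger RNA regulators tested had a median log2 change of 0.06. Of them 1 was called higher and 0 lower, beside 4.86% and 5.13% of all genes tested. That gene was Lrpprc, which stabilises mitochondrial messenger RNA, at 10.53, 9.88 and 10.8 FPKM in untreated and 16.98, 17.5 and 12.7 FPKM in flavonoid libraries (log2 change 0.54, limma adjusted p = 0.0482). None of 10 genes of mitochondrial DNA transcription and replication was called in either direction, where 9.99% of all genes were. Their median log2 change was 0.10. Of 13 proteins encoded by mitochondrial DNA, the products this ribosome makes, 11 were tested and 0 called. Their summed level was 1596, 1684 and 2126 FPKM in untreated and 2699, 2565 and 1201 FPKM in flavonoid libraries, so flavonoid replicate 3 was the lowest of the 6 and flavonoid replicates 1 and 2 the highest. That order over libraries differed from the order of the ribosomal protein genes.

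Of 8 regulators of mitochondrial biogenesis tested, 2 were called higher and 0 lower, beside 4.86% and 5.13% of all genes tested. Their median log2 change was 0.02, with 4 estimates above and 4 below 0. Myc, which binds the E-box and drives growth genes, had 33.9, 31.97 and 31.87 FPKM in untreated and 85.1, 81.1 and 76.7 FPKM in flavonoid libraries, a log2 change of 1.29 (SE 0.10, limma adjusted p = 0.00155). Pprc1, a PGC-1-related coactivator, had 6.78, 7.73 and 9.99 against 12.6, 11.9 and 14.1 FPKM (log2 change 0.61, limma adjusted p = 0.0397). Nrf1 and Gabpa, whose motifs are described above, had log2 changes of 0.12 and -0.29, with limma adjusted p of 0.601 and 0.416.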

How the data were processed

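RNA of 3 untreated and 3 flavonoid-treated 3T3-L1 libraries was measured by RNA sequencing (TRIzol extraction, TruSeq RNA kit, Illumina HiSeq, per the labels' protocols). The authors deposited 1 table of FPKM values; FastQC and HISAT2 with the build mm10 are named, without versions, per the submitters' processing notes. How fragments were counted, on which annotation and whether by strand is not given in the sources used here, so reads of pseudogenes and overlapping genes are uncertain.

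Within a gene, values step by the worth of 1 fragment. Whole fragments came out for 100% of values of the 22235 genes above 0, within 0.005 fragments. These give depth and implied length and cover counting error only.

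The test was limma 3.58.1 (R 4.3.3), applied to log2(FPKM + 1) values of the 11464 genes averaging 1 FPKM or more, with an intensity trend in the variance, two-sided, with Benjamini-Hochberg adjustment at 0.05. "Called" means past that threshold. Fold changes on this scale understate those of low genes. The fit was tested on simulated data with independent counts and no trend over gene length. That test does not cover the library pattern and length trend seen here. An exact permutation test of 3 against 3 cannot go below 0.1 and was not used.

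The members and gene lists were chosen with earlier results of these data known. Genes named are those called, the 5 highest and 5 lowest changes and the 4 highest levels in each subunit, the gene nearest the minimum mean, a fixed panel of 12, and called genes of the lists with up to 3 others each. Of the panel, Mrpl58 had no row under that symbol. Cox6a2, called in the respiratory chain list, was not followed by name over the settings. Genes without overlap and the 8 exceptions to the library order were named after their values were seen. Positions and promoters come from RefSeq on GRCm38.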

Additional observations from a re-analysis of the deposited data

How the results depend on the processing

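Of 38 named genes under 22 other settings, 682 values kept their direction and side of the threshold, 71 kept their direction but lost the call, 37 gained one and 43 changed sign. Mrpl16 was called under 16 and Mrps30 under 14 of the 23 settings, the main one included. Members called were 2 higher and 0 lower with a pseudocount of 0.1 or 5, a mean of at least 5 FPKM, median-ratio scaling, no intensity trend or robust variance, and 3 higher with TPM. All genes called higher were 3.85% to 6.29% under those settings. There were 0 higher with no filter on low values (1.43% of all genes), 4 with quantile normalization (6.19%), and 12 higher and 2 lower with the length trend removed. After the data were seen, 4 settings were added: voom gave 1 higher (4.82% of all genes), centring on the median member 0 higher and 1 lower (1.33% and 5.04%), and removing the length trend gave 13 higher without untreated replicate 1 (8.89%) and 7 higher and 1 lower without untreated replicate 3 (7.7% and 7.89%). Leaving out 1 library gave 0 to 16 higher and 0 to 1 lower, and left 1 group with 2 libraries and less power. The causes of these shifts were not tested.

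Replicate numbers did not pair the libraries: same-numbered deviations correlated at -0.14, -0.12 and -0.20. With the replicate block, 0 members were higher and 0 lower, beside 1.92% and 2.07% of all genes, and 457 against 1145 genes were called in all; with the length trend removed as well, 9 members were higher and 0 lower, beside 8.23% and 8.14%.

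All genes called higher were 4.86% in the main setting, 1.43% with no filter, 1.92% with the replicate block and 1.33% with centring. They were 3.85% with TPM, 5.6% and 6.19% with median-ratio and quantile scaling, and 4.68% with no intensity trend. With the length trend removed they were 10.7%, with the block too 8.23%, and without untreated replicate 1 and 3 too 8.89% and 7.7%. Leaving out a library gave 0.567% to 7.64%. In the assembly list, 5 higher became 0 with no filter, with the replicate block and with centring. That count was 7 with the length trend removed, and 0 to 6 when a library was left out. The count of translation factors (1) was 0 with no filter, TPM, no intensity trend, the replicate block and centring, 2 with median-ratio or quantile scaling and with length and block, 4 with the length trend removed, 2 without untreated replicate 1 or 3 as well, and 0 to 2 leaving out a library. Regulators (2) gave 1 with no filter, TPM, the replicate block and centring, 3 with quantile scaling and with the length trend removed (with the block or without untreated replicate 1 or 3), and 1 to 3 leaving out a library. Transcription and replication genes (0) gave 2 with the length trend removed, 1 with the block or without untreated replicate 1 as well, and 0 to 1 leaving out a library; proteins of mitochondrial DNA gave 0 to 1. Cytosolic ribosomal proteins (0) gave 1 with TPM or quantile scaling, 3 with the length trend removed, 2 with the block too, 6 and 2 without untreated replicate 1 and 3 too, and 0 to 4 leaving out a library. Respiratory chain genes (1) gave 3 with TPM or median-ratio scaling, 2 with quantile scaling or centring, 6 with the length trend removed, 4 with the block too, 8 and 4 without untreated replicate 1 and 3 too, and 1 to 9 leaving out a library.

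Signs were followed in detail for the 30 named members only. Members that were not named also crossed 0 over the settings, among them Mrpl17 (-0.037 to 0.58) and Mrpl51 (-0.37 to 0.089). Of the 30 named members, signs changed for 15. With median-ratio scaling the log2 changes were 0.029 for Mrpl33, 0.036 for Mrps21, 0.015 for Mrps33, 0.032 for Mrps36, 0.0085 for Mrps6 and 0.012 for Mrps9, and with quantile normalization 0.019 for Mrpl47. Mrpl55 was -0.013 with TPM, -0.032 with the length trend removed, with or without the replicate block, -0.15 with centring and -0.056 with the length trend removed without untreated replicate 3. Mrps18c was -0.0023 with the length trend removed, with or without the block, -0.079 with centring and -0.10 with the length trend removed without untreated replicate 3. With the length trend removed and without untreated replicate 1, Mrpl33 was 0.016 and Mrps25 0.12. Leaving out 1 library at a time gave ranges of -0.30 to 0.11 for Mrpl13, -0.34 to 0.022 for Mrpl14, -0.30 to 0.042 for Mrpl28, -0.24 to 0.27 for Mrpl33, -1.07 to 0.10 for Mrpl40, -0.36 to 0.13 for Mrpl47, -0.12 to 0.21 for Mrpl55, -0.038 to 0.43 for Mrps16, -0.14 to 0.33 for Mrps18c, -0.19 to 0.19 for Mrps21, -0.23 to 0.091 for Mrps33, -0.13 to 0.051 for Mrps36, -0.25 to 0.15 for Mrps6 and -0.16 to 0.088 for Mrps9.

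Counting error was below the untreated spread for 76 of the 77 genes, all but Mrpl22, and below the flavonoid spread for 61.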
